A study of Mus musculus with 38 samples.

Results

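Binding of the Notch1 intracellular domain (Notch1-IC) was compared between an early and a late stage of T cell development in culture, called Phase 1 and Phase 2. The members were peaks of the 2 Notch1-IC lists that lay on numbered autosomes and were not annotated as satellite or rRNA sequence, which kept 145 of 152 peaks in Phase 1 and 333 of 352 in Phase 2. Both lists are shorter than the sets of reproducible Notch1-IC peaks that the study describes, and the step between them is not given in the sources used here, so each class is a class of these lists. Peaks that shared at least 1 bp were joined, which gave 396 sites. Of these, 63 were found in the Phase 1 list only, 82 in both lists and 251 in the Phase 2 list only. The 15 peak lists of the series that were used held 357910 peaks in all.

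The cells were Cas9-LP cells, lymphoid progenitor lines made from fetal liver of Ebf1-deficient mice with a Rosa26-Cas9 knock-in. All groups carried both alleles, so none of them could follow the B lineage program that needs EBF1. LP cells were kept on OP9 stroma without Notch ligand, while Phase 1 and Phase 2 cells grew on OP9-DLL4 stroma, which presents the ligand DLL4. Phase 1 stands for the time before commitment to the T lineage and Phase 2 for the time after it. Other lists came from RUNX1, Med12, p300 and CTCF ChIP-seq in LP and Phase 1, and from Phase 1 cells with control guides (sgCont) or guides against Cbfb or Med12. No Phase 2 list of another factor was analysed here, so the factors at Phase 2 sites are those of earlier stages. The lists hold positions and not expression, so the labelled stages were not checked against marker genes.

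Notch receptors are cut when they meet a ligand on a neighboring cell, and the released intracellular domain moves to the nucleus. There it joins RBPJ, which holds the DNA, and Mastermind proteins, which bring p300. In the thymus this signal starts the T cell program and is needed until the β-selection checkpoint. RBPJ favors the sequence GTGGGAA, and at some targets a pair of such sites face each other and bind a dimer of the complex.

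The following sites show the strings on which the results turn. The first set holds sites at Notch pathway genes and, nearest to Ldhal6b, the highest-scored Phase 1-only site that contained GTGGGAA on either strand. It is given on the plus strand of mm10 from the GRCm38 genome, and the capitals mark GTGGGAA or its reverse complement TTCCCAC.
Notch3, shared, chr17:32164360-32164420: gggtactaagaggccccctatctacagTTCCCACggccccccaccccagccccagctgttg
Notch1, shared, chr2:26502369-26502429: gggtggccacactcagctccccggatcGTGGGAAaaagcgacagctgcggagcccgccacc
Dtx1, shared, chr5:120685852-120685912: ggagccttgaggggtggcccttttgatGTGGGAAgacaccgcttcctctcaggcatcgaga
Hey2, Phase 1-only, chr10:30842957-30843017: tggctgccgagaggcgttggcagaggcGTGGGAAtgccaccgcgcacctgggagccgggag
Rbpj, Phase 1-only, chr5:53589296-53589356: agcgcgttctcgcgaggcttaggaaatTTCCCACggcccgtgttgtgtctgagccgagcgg
Ldhal6b, Phase 1-only, chr17:5406721-5406781: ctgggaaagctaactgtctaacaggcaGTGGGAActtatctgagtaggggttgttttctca

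The second set holds the sites with a pair, that is GTGGGAA followed after 15 to 17 bp by a partner in the opposite direction, read on either strand (TTCNCA, where the open base is not a G). By Phase 2 score, the highest shared and Phase 2-only sites with GTGGGAA, nearest to Agfg1 and Gm266, were among them. Capitals mark both members of the pair, with the base that follows the partner.
Hes1, shared, chr16:30065250-30065303: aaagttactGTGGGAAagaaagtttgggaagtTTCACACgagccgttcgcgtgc
Agfg1, shared, chr1:82807242-82807295: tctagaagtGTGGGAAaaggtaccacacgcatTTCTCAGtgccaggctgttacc
AW011738, shared, chr4:156203197-156203250: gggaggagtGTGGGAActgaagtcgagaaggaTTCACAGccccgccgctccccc
Gm266, Phase 2-only, chr12:111474944-111474997: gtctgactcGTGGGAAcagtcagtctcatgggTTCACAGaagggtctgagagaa
Rnf157, Phase 2-only, chr11:116419200-116419253: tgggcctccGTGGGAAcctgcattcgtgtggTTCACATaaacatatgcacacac
Cd82, Phase 2-only, chr2:93463827-93463880: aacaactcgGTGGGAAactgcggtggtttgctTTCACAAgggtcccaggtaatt

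The third set holds Phase 2-only sites at T cell genes in which the capitals mark an E-box (CAGCTG or CAGGTG on either strand), the string bound by E proteins such as E2A and HEB. These were chosen after their values were seen, and the Cd3e site also holds TTCCCAC between its E-boxes.
Cd3e, Phase 2-only, chr9:45011517-45011577: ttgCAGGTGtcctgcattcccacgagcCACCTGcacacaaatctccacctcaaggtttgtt
Ptcra, Phase 2-only, chr17:46768046-46768106: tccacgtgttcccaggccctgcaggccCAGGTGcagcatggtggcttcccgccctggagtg
Rag2, Phase 2-only, chr2:101551473-101551533: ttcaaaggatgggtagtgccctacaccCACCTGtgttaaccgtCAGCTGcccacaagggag

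To ask how much of the early binding was kept, the classes were first described by number and score. Of the Phase 1 sites, 56.6% (82 of 145, 95% Wilson interval 48.4 to 64.3%) were also in the Phase 2 list, and of the Phase 2 sites 24.6% (82 of 333, 20.3 to 29.5%) were also in the Phase 1 list. Each shared site paired 1 peak with 1 peak, and their centers lay a median of 36 bp apart. The classes were well separated in space. No Phase 1-only site had a Phase 2 peak centered within 1 kb, and only 2 of the 63 had such a peak within 10 kb. The replicates had been combined in each list, so no difference between the stages could be set against the spread between cultures, and a longer list can come from depth or enrichment as well as from more bound sites.

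The score is the authors' normalized peak score, with a floor of 15, and is comparable only within a list. Shared sites scored higher than the sites of 1 stage in either list. The median Phase 1 score was 20.9 at shared and 17.1 at Phase 1-only sites, and the median Phase 2 score was 27.5 at shared and 20.3 at Phase 2-only sites. Of the 20 highest Phase 1 peaks 19 were shared, the exception being at Tpmt. Of the 20 highest Phase 2 peaks 9 were shared. Across the 82 shared sites, the scores of the stages were only loosely related (Spearman's rho 0.32, Pearson's r of the log2 scores 0.27, as a description over sites). A shared site that was high in 1 list was therefore often not high in the other, as the plot of both scores shows.

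**Figure D1:**
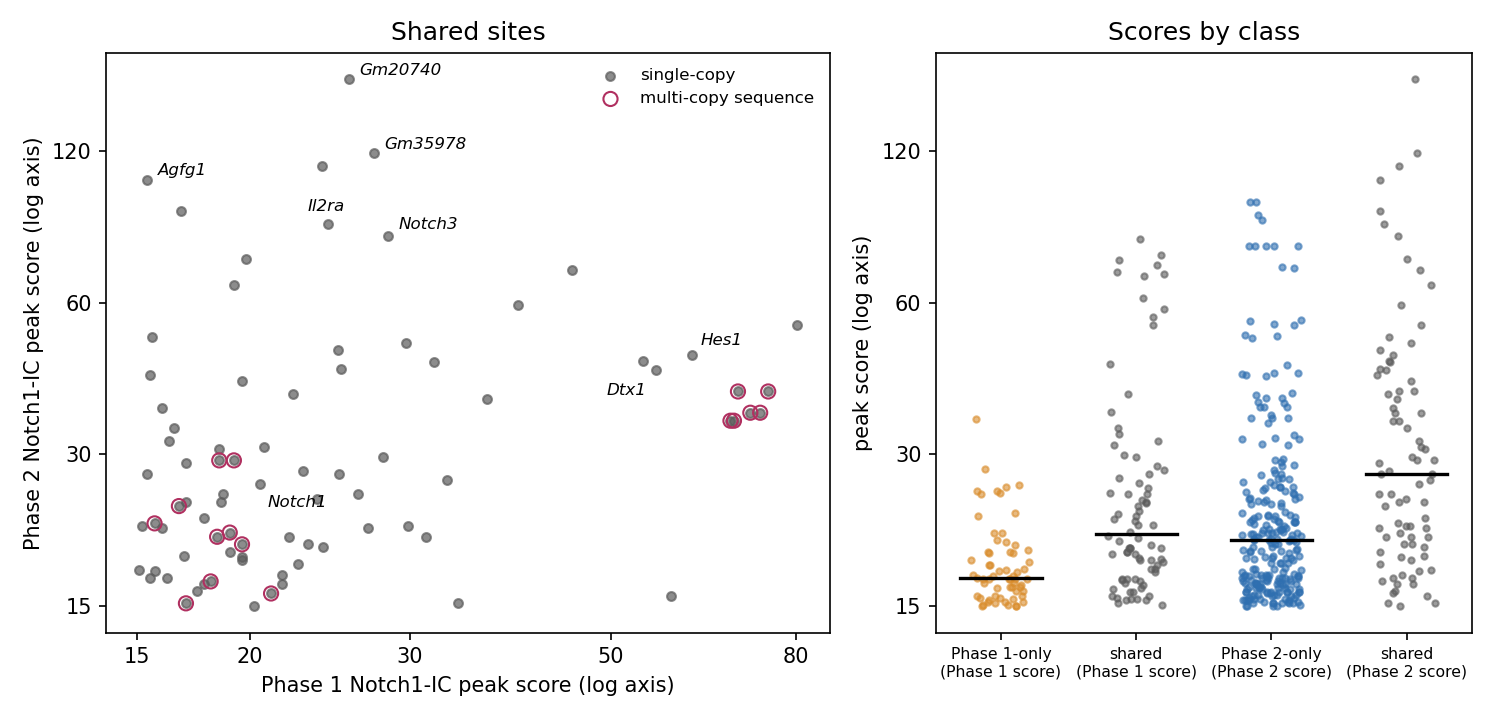
Left: Phase 1 score (x axis) against Phase 2 score (y axis) of the 82 shared sites, both on log axes, with rings around sites in multi-copy sequence and the nearest gene of some sites named. Right: scores of every site by class, each dot a site and each bar the median. The 6 ringed sites near a Phase 1 score of 70 are copies of a long terminal repeat, and the Gm20740 site at the top has a Phase 2 score of 166.4.

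Some sites lay in sequence present in several copies, and they weighed on the shared class most. A site was called multi-copy when its central 200 bp shared a run of 50 bases with another site of the same list, a rule set after the data were seen. This applied to 9 Phase 1-only, 16 shared and 19 Phase 2-only sites. Of the shared ones, 6 were RLTR3_Mm long terminal repeats, which held ranks 2 to 7 of the Phase 1 list with scores of 67.7 to 74.5 and Phase 2 scores of 35.0 to 40.0. All 6 held GTGGGAA. Of the Phase 2-only ones, 11 were peaks of a tandem cluster of 4.5S RNA genes (Rn4.5s) on chromosome 6, between 47655015 and 47772408, with scores of 37.3 to 77.9. A pair of Phase 1-only peaks at copies of Gm16677 on chromosome 14 had the same score, 25.4. Reads from such copies may not be assignable to one of them, so values below are also given without multi-copy sites. This left 54 Phase 1-only, 66 shared and 232 Phase 2-only sites.

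Genes of the Notch pathway and direct Notch targets had 7 shared and 4 Phase 1-only sites, a split near that of all Phase 1 sites, of which 56.6% were shared. Direct Notch targets also had 3 Phase 2-only sites, at Ptcra and Tcf7, which are described below. Hes1, the repressor through which Notch acts in many tissues, had a shared site at its promoter, 51 bp before the annotated start (chr16:30065220-30065392), with a score of 61.4 in Phase 1 and 47.2 in Phase 2. A weaker shared site lay 1.24 kb before the start, with scores of 22.9 and 27.8. Dtx1, which encodes the ubiquitin ligase Deltex1, had a pair of shared sites in its introns. The site 25.8 kb after the start scored 56.1 in Phase 1 and 44.1 in Phase 2, and the site 23.1 kb after it scored 19.6 and 41.9. The promoter site of Hes1 and the more distant Dtx1 site were ranks 8 and 10 of the 145 Phase 1 peaks and ranks 34 and 39 of the 333 Phase 2 peaks.

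The receptor genes Notch1 and Notch3 had shared sites in introns. The site in an intron of Notch3 (chr17:32164296-32164468, 2470 bp after the start) was rank 22 of 145 in Phase 1, with a score of 28.4, and rank 11 of 333 in Phase 2, with a score of 81.5. At Notch1 itself a shared site in an intron (chr2:26502291-26502463) scored 20.5 and 26.2, which were rank 55 of 145 and rank 102 of 333. A stronger site lay at chr2:26513436-26513608, which the deposited annotation gave to Gm35978 and which falls within the GENCODE gene Notch1, 3.14 kb after its start. It was rank 25 in Phase 1, with a score of 27.4, and rank 2 in Phase 2, with a score of 118.8. Il2ra, which encodes the CD25 chain that marks the DN2 stage, had a shared site 19.4 kb before its start, with a score of 24.4 at rank 38 in Phase 1 and 86.1 at rank 10 in Phase 2. No GTGGGAA was found in its central 200 bp.

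Other pathway members and targets were in the early list only. The site at Rbpj, the DNA-binding partner itself, lay 1.02 kb before the nearest annotated start, in an intron of the gene, and scored 22.6. Nrarp, a feedback inhibitor that binds the Notch complex, had a site 7.94 kb before its start with a score of 17.1. Hey2, a repressor related to Hes1, had a promoter site with a score of 15.3, just over the floor. Nfe2, which encodes a factor of blood progenitors and is on the lists of direct Notch targets and of progenitor genes, had a promoter site with a score of 25 that also lay in the LP Notch1-IC list and held no GTGGGAA. The Nfe2 and Rbpj sites were in the highest-scored 48 peaks of the Phase 1 list and the Hey2 site was at rank 135 of 145. With the depth of the lists unknown, their absence from the Phase 2 list does not show that binding was lost.

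Genes of the pre-TCR and of T cell receptor signaling had sites in the Phase 2-only and shared classes, at 2.79% and 2.44% of these. The shared ones were at Il2ra and nearest to Zap70, a kinase of the receptor, whose site lay inside Tmem131 and scored 25 in Phase 1 and 48.3 in Phase 2. Rag2, which encodes a subunit of the recombinase, had a Phase 2-only site 73.2 kb before its start with a score of 43.2. Cd3e, a signaling chain of the T cell receptor, had a pair of sites, with a score of 39.4 at 1.98 kb before the start and 27.5 at 255 bp after it. Ptcra, which encodes the pre-TCR α chain, had a pair as well, with a score of 27.9 at 4.33 kb before the start and 16.7 at the promoter. Lat and Lck, which encode an adaptor and a kinase of T cell receptor signaling, had promoter sites with scores of 16.8 and 16.2. The Lat promoter site also overlapped an LP Notch1-IC peak. Of the 12 Phase 2-only sites at listed genes, 9 overlapped a Phase 1 RUNX1 peak and 9 a Phase 1 p300 peak, beside 74.5% and 81.7% of all Phase 2-only sites.

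Transcription factors of the T lineage had 4 Phase 2-only sites and 1 shared site, which were 1.59% and 1.22% of these classes, beside 1.27% of LP Notch1-IC peaks. Lef1, a partner of β-catenin, had Phase 2-only sites 134 and 163 kb before its start with scores of 39.8 and 21.6. Tcf7, which encodes TCF1, had a site 31.2 kb before its start (chr11:52314079-52314251) with a score of 26.4. This site held a RUNX string and an E-box but no GTGGGAA. It overlapped a Phase 1 RUNX1 peak but no Phase 1 Med12 or p300 peak. Ets1 had a site 10.3 kb after its start with a score of 21.2. Gata3 was the nearest gene of no site, but Phase 2-only sites with scores of 15.2 and 17.4 lay 88.3 and 296 kb after its start. The paper reports Notch binding together with RUNX, Mediator and p300 at enhancers of Tcf7 and Gata3 already in the early stage. The Tcf7 enhancer it names lies 31 kb upstream, the distance of the Tcf7 site described here. The lists used here held no Phase 1 Med12 or p300 peak over that site. Whether either of these Gata3 sites is the Gata3 enhancer of the paper was not checked. Absence of the Tcf7 and Gata3 sites from the Phase 1 list does not show that they were unbound in Phase 1. Runx3 had a weak shared site 40.6 kb before its start, with scores of 15.5 and 17.1, which overlapped no Phase 1 RUNX1 peak although it held a RUNX string.

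The gene lists were short against the lists of sites. Of 31 direct Notch targets, 3 had a Phase 1-only site, 4 a shared site and 2 a Phase 2-only site, and these sites made up 4.76%, 7.32% and 1.20% of their classes. Of 32 T cell receptor and signaling genes, 0 had a Phase 1-only site, 2 a shared site and 5 a Phase 2-only site. Of 34 T lineage factors, 0, 1 and 3 had such sites. Sites at any of the 150 listed genes made up 6.35% of Phase 1-only, 11.0% of shared and 4.78% of Phase 2-only sites, against 2.93% of the LP Notch1-IC peaks. With 63 sites, a count of 0 allows a share of up to 4.76%, so the absence of T cell genes from the Phase 1-only class was within counting error. Of 27 progenitor and myeloid genes only Nfe2 and Mycn had a site. The 17 B lineage genes had 0 of 396 sites, which allows a share of up to 0.758%.

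Some sites, among them the highest of the Phase 2 list, lay in regions known for enhancers of T cell genes. The locus distances in this paragraph were read from GENCODE for genes chosen after the sites were seen. The highest site of the Phase 2 list (chr15:63255757-63255929, nearest annotated gene Gm20740) lay 1270 kb after the start of Myc, in the gene desert that holds a Notch-responsive Myc enhancer. It was shared, with a score of 25.7 and rank 30 in Phase 1 and a score of 166.4 and rank 1 in Phase 2. Another 4 Phase 2-only sites were nearest to Gm20740, with scores of 15.6 to 32.2. In the desert after Bcl11b, the gene of a commitment factor, a shared site 852 kb after the start scored 16.5 and 33.8. It had Phase 2-only neighbors at 843, 855 and 884 kb, with scores of 38.1, 21.2 and 17.1.

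T cell receptor loci held sites near their constant regions in both stages. A shared site 7.86 kb after the start of Trbc2, beside the known enhancer of the β locus, scored 19.2 in Phase 1 and 65.0 in Phase 2. At the α locus a shared site 7.06 kb after the start of Trac scored 17 and 28.9, and a Phase 2-only site followed at 13.0 kb with a score of 16. At the γ locus 3 sites were shared. The sites 5.54 and 58.7 kb after the start of Tcrg-C1, both in multi-copy sequence, scored 19 and 18.1 in Phase 1 and 21 and 16.8 in Phase 2. Another, 142 kb after it, scored 29.9 and 21.6, at rank 20 of 145 and rank 151 of 333. Nck2, which encodes an adaptor protein, had the top site of the Phase 1 list in an intron, with a score of 80.1 there and 54.2 in Phase 2. Nck2 had another shared site and a Phase 2-only site, and Ahi1, next to Myb, had 3 Phase 2-only sites with scores of 15.2 to 24.

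The leading sites of the stage-only classes differed in kind. The 5 highest Phase 1-only sites were at Tpmt (35.3), Ldhal6b (28.1), Hjurp (26.1), Prc1 (25.9) and Gm16677 (25.4), and all but the Ldhal6b site were at promoters. Tpmt encodes a methyltransferase of thiopurines, and Hjurp and Prc1 act at the centromere and the mitotic spindle. The 5 highest Phase 2-only sites were nearest to Dennd2d and Gm266 (95.1 each), Arhgef10l (89.4), Tmem125 (87.6) and Rn4.5s (77.9). All of these were outside promoters, and the Dennd2d, Gm266 and Arhgef10l sites overlapped RUNX1, Med12 and p300 peaks of Phase 1, whereas the Tmem125 site overlapped none of the 3.

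Promoters set the Phase 1-only class apart. HOMER had annotated 46.03% of Phase 1-only sites as promoter (29 of 63, 34.3 to 58.2%), against 8.54% of shared (7 of 82, 4.197 to 16.6%) and 5.98% of Phase 2-only sites (15 of 251, 3.65 to 9.62%). Of all 37671 autosomal Phase 1 RUNX1 peaks, 28687 were outside promoters. Their promoter share thus lay under that of Phase 1-only sites and over those of shared and Phase 2-only sites. The median distance to the nearest start was 0.858 kb at Phase 1-only sites, 20.98 kb at shared and 23.8 kb at Phase 2-only sites. The promoter share differed between Phase 1-only and shared sites (two-sided Fisher's exact test, adjusted p = 3.1e-06) and between Phase 1-only and Phase 2-only sites (adjusted p = 9.3e-12). It was 50.0%, 9.09% and 4.31% in the 3 classes without multi-copy sites. Among the promoters were those of Rpl23, Atp5g1, Timm13, Cox18 and U2af2, genes of the ribosome, the mitochondrion and the spliceosome that are active in most cells, named here after their values were seen. Promoters of Nfe2 and Hey2 were also among them, and the share of genes active in most cells was not counted. Sites are not replicates of a culture, so the tests cover counting error only.

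RUNX1, Med12 and p300 were at most sites of every class while the cells were still in Phase 1. Phase 1 RUNX1 peaks overlapped 88.9% of Phase 1-only (56 of 63), 87.8% of shared (72 of 82, by their Phase 2 peaks) and 74.5% of Phase 2-only sites (187 of 251). All 3 factors together were at 85.7%, 85.4% and 72.1%. Of the Phase 2-only sites 81.7% (205 of 251) overlapped a Phase 1 p300 peak, so most places found in the late Notch1-IC list were in the p300 list of the early stage. Of all 37671 autosomal Phase 1 RUNX1 peaks, 86.0% overlapped Med12 and 87.8% p300, so the company of these factors was not particular to Notch1-IC sites.

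The classes differed more in whether a RUNX1 peak was listed before Notch stimulation. RUNX1 peaks of LP cells, before any ligand, overlapped 81.0% of Phase 1-only sites (51 of 63, 69.6 to 88.8%), 70.7% of shared (58 of 82, 60.1 to 79.5%) and 51.4% of Phase 2-only sites (129 of 251, 45.2 to 57.5%). The difference between Phase 1-only and Phase 2-only sites passed (Fisher's exact test, adjusted p = 1.4e-04), as did that between Phase 2-only and shared sites (adjusted p = 0.0116). LP RUNX1 peaks overlapped 69.2% of all 37671 autosomal Phase 1 RUNX1 peaks, near the share of shared sites. They overlapped 52.4% of all Phase 1 p300 peaks, near that of Phase 2-only sites. Among sites with a Phase 1 RUNX1 peak, 51 of 56 Phase 1-only, 57 of 72 shared and 128 of 187 Phase 2-only sites also overlapped an LP RUNX1 peak. Sites with RUNX1 in Phase 1 but not in LP made up 7.94% of Phase 1-only, 18.3% of shared and 23.5% of Phase 2-only sites, and Med12 gave 9.52%, 21.95% and 32.3%. Without promoters the LP RUNX1 shares were 76.5%, 73.3% and 52.97%. The call between Phase 1-only and Phase 2-only sites was then lost (Fisher's exact test, adjusted p = 0.0684), with a difference of 23.5 percentage points.

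**Figure D2:**
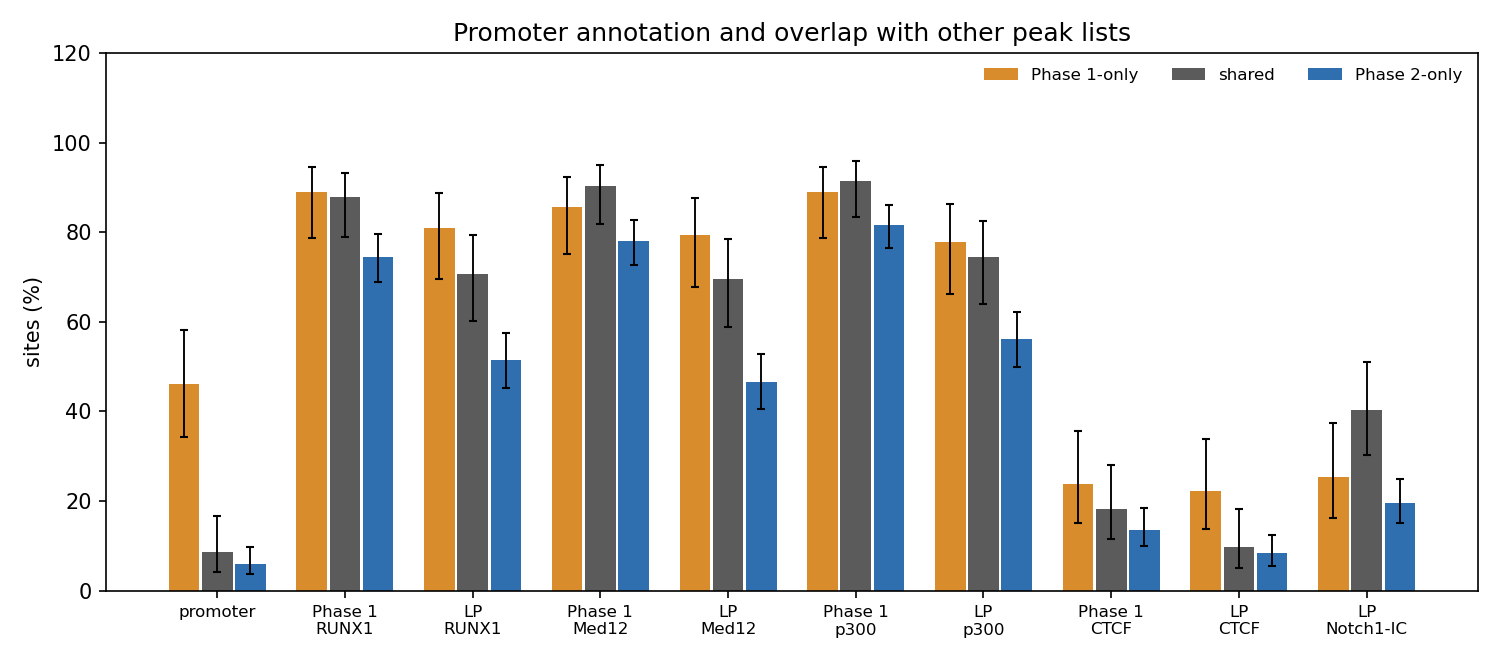
Share of Phase 1-only, shared (Phase 2 peaks) and Phase 2-only Notch1-IC sites (y axis, percent) annotated as promoter or overlapping each peak list on the x axis, with 95% Wilson intervals. Phase 1-only sites lead for promoters (46.03%), and the LP RUNX1, LP Med12 and LP p300 shares of Phase 2-only sites are the lowest of the 3 classes, at 51.4%, 46.6% and 56.2%.

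In all, 5 of 9 features differed between Phase 2-only and shared sites, and each was less frequent at Phase 2-only sites. Besides LP RUNX1 these were, by Fisher's exact test, Phase 1 RUNX1 (74.5 against 87.8%, adjusted p = 0.0494), Phase 1 Med12 (78.1 against 90.2%, adjusted p = 0.0494), overlap with the LP Notch1-IC list (19.5 against 40.2%, adjusted p = 0.00225) and GTGGGAA (22.7 against 40.2%, adjusted p = 0.0117). The LP Notch1-IC list also overlapped 25.4% of Phase 1-only sites but only 3.73% of all Phase 1 RUNX1 peaks, so this overlap was frequent in every class. None of the 5 passed when multi-copy sites were left out. With fewer sites, the differences were then -10.1, -8.80 and -13.4 percentage points for Phase 1 RUNX1, Phase 1 Med12 and LP RUNX1, -6.36 for LP Notch1-IC and -14.8 for GTGGGAA, against -13.3, -12.2, -19.3, -20.7 and -17.5 over all sites. The adjusted p-values were 0.168 for Phase 1 RUNX1, Phase 1 Med12 and LP RUNX1, 0.389 for LP Notch1-IC and 0.0685 for GTGGGAA. The share of LP Notch1-IC overlap at shared sites fell most, from 40.2% to 25.8%, since all 16 multi-copy shared sites were in that list. The RUNX1 and Med12 calls also depended on the overlap rule. With factor peak centers at most 100 bp from the site center, over all sites, the differences were -3.26 for Phase 1 RUNX1, -1.78 for Phase 1 Med12 and -4.06 for LP RUNX1. Their adjusted p-values by Fisher's exact test were 0.783, 0.817 and 0.611, while LP Notch1-IC still passed (-16.2, adjusted p = 0.0145).

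CTCF, the architectural factor, was at a minority of sites. Phase 1 CTCF peaks overlapped 23.8% of Phase 1-only (15 of 63), 18.3% of shared (15 of 82) and 13.5% of Phase 2-only sites (34 of 251), near the 15.6% of all Phase 1 RUNX1 peaks. No contrast passed Fisher's exact test for CTCF over all sites, where the smallest adjusted p was 0.102, for Phase 1-only against Phase 2-only sites. That contrast passed with the Phase 2 list shortened to 145 peaks, with a difference of 13.8 percentage points (exact test, adjusted p = 0.0490).

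The RBPJ string was more frequent in the sites of every class than in the windows beside them. GTGGGAA lay within the central 200 bp of 34.9% of Phase 1-only (22 of 63, 24.3 to 47.2%), 40.2% of shared (33 of 82, 30.3 to 51.1%) and 22.7% of Phase 2-only sites (57 of 251, 18.0 to 28.3%). It was in 3.97% to 4.88% of windows of the same length 2 kb to each side, in 5.32% of all Phase 1 RUNX1 peaks and in only 4.46% of the 1571 LP Notch1-IC peaks that passed the same filters. The nearest GTGGGAA was a median of 13 bp from the center at Phase 1-only and 23 bp at Phase 2-only sites, against 73 and 57 bp in their flanking windows that held one. At shared sites it was 41 bp by the Phase 2 peaks, as in their flanks, and 26.5 bp by the Phase 1 peaks, against 66 bp. In the Phase 2 list it was in 37.8% of the 111 highest and 19.8% of the 111 lowest peaks by score, while in the Phase 1 list it was in 43.8% of the 48 highest and 36.7% of the 49 lowest. The shorter core TGGGAA was in 52.4% of Phase 1-only, 60.98% of shared and 49.8% of Phase 2-only sites.

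Paired RBPJ strings were rare. They were found at 0 of 63 Phase 1-only sites, which allows a share of up to 4.76%, at 3 of 82 shared and at 3 of 251 Phase 2-only sites. They were found in 12 of 37671 Phase 1 RUNX1 peaks, 3 of which overlapped a Notch1-IC site, and in 0 of 502 windows beside Phase 2-only sites, which allows up to 0.598%. In the second set of sequences, 5 of the 6 pairs were 16 bp apart and that at Rnf157 was 15 bp apart. Their Phase 2 scores were 105.3 (Agfg1), 95.1 (Gm266), 55.2 (Rnf157), 47.2 (Hes1), 29.7 (AW011738) and 25.7 (Cd82). The Agfg1 site had a Phase 1 score of 15.4 at rank 132 of 145 and was rank 4 of 333 in Phase 2. The Rnf157 pair lay in a B3 repeat.

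E-boxes ran in the other direction and gave the widest separation of the classes among the strings. CAGCTG or CAGGTG was in the central 200 bp of 28.6% of Phase 1-only sites (18 of 63, 18.9 to 40.7%), 56.1% of shared (46 of 82, 45.3 to 66.3%) and 72.5% of Phase 2-only sites (182 of 251, 66.7 to 77.7%). Flanking windows held one in 22.6% to 25.4%, and Phase 1 RUNX1 peaks in 30.3%. LP Notch1-IC peaks held one in 52.6%, near the share of shared sites. The comparison was planned without a test. Outside promoters the shares were 47.1% (31.5 to 63.3%), 57.3% (46.1 to 67.9%) and 74.2% (68.2 to 79.3%), and the intervals of Phase 1-only and shared sites then overlapped widely. Without multi-copy sites they were 24.1%, 62.1% and 73.3%. At Phase 2-only sites the nearest E-box was a median of 24 bp from the center, against 44 bp in flanking windows. At Phase 1-only sites it was 74.5 bp from the center, and E-boxes were no denser beside the center than farther out, as the plot of positions shows.

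**Figure D3:**
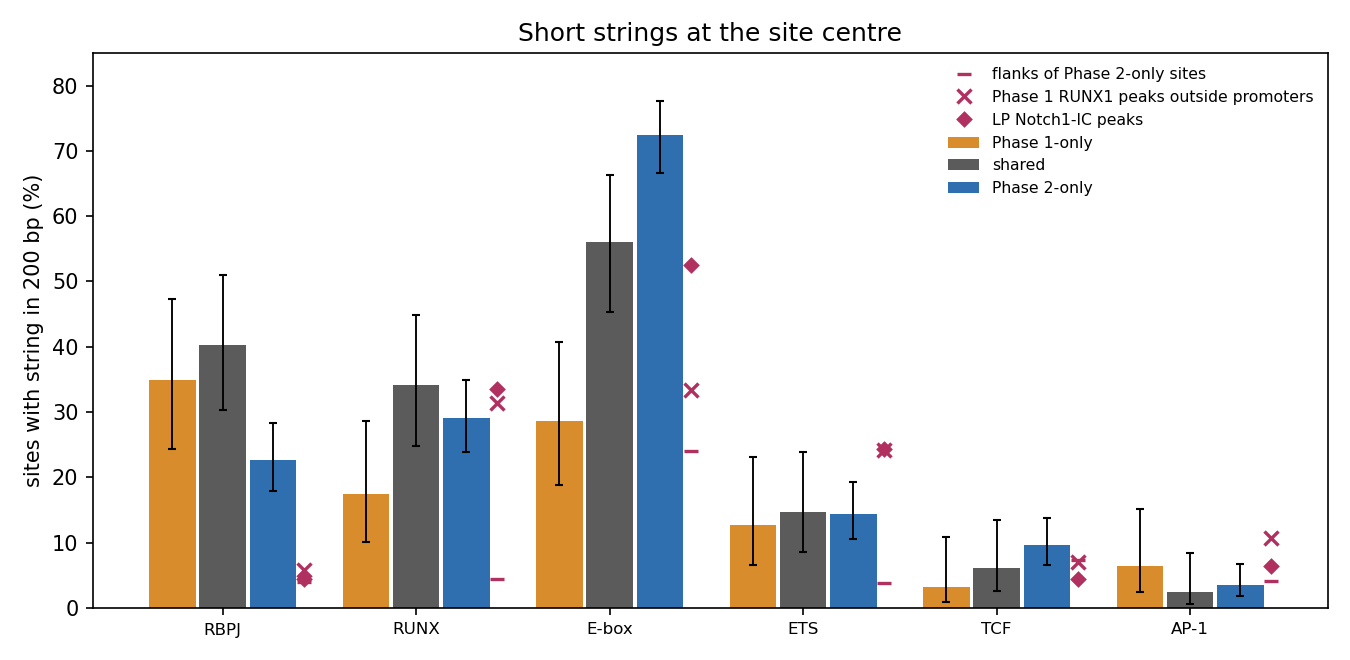
Share of sites (y axis, percent) with each short string in the 200 bp around the center, by class, with 95% Wilson intervals. Marks beside the bars give flanks of Phase 2-only sites, Phase 1 RUNX1 peaks outside promoters and LP Notch1-IC peaks. The RBPJ share is 4.46% and the E-box share 52.6% in LP Notch1-IC peaks, and the E-box share reaches 72.5% at Phase 2-only sites.

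**Figure D4:**
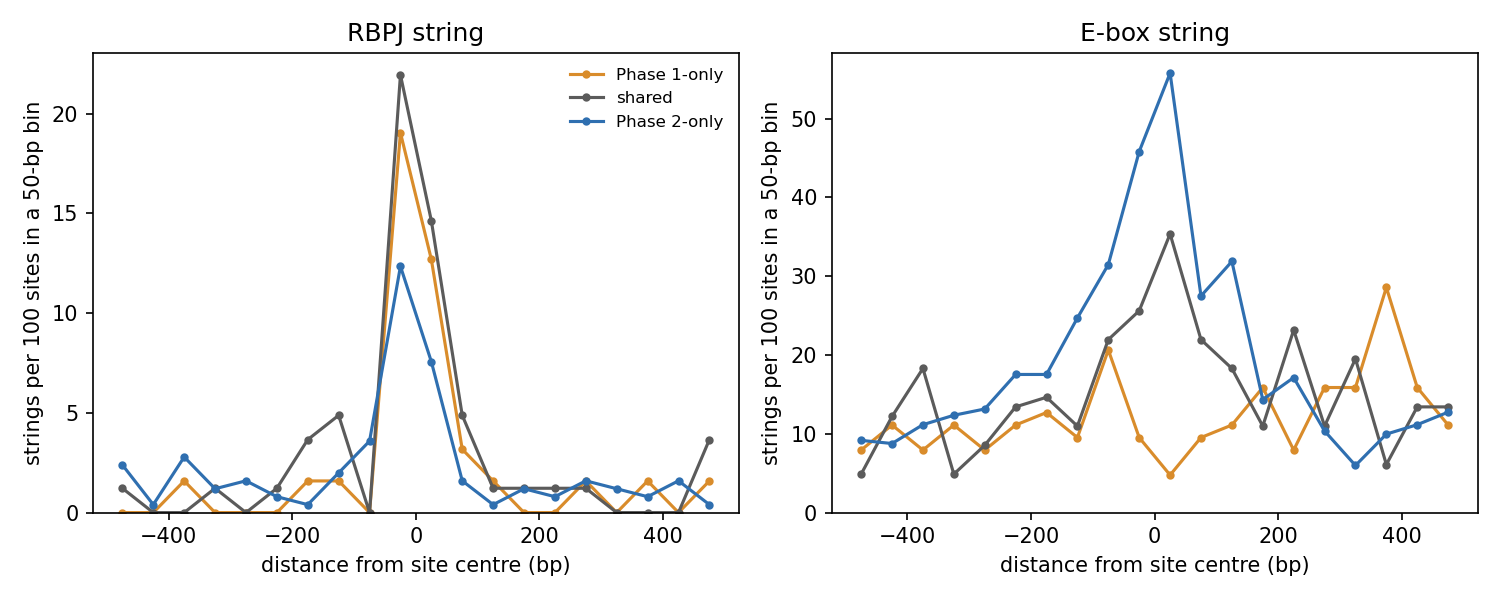
Position of RBPJ strings (left) and E-boxes (right) relative to the site center (x axis, bp), as matches per 100 sites in bins of 50 bp (y axis). Matches were counted on each strand separately. CAGCTG reads the same on both strands, so each CAGCTG adds a match from each strand. E-box heights therefore exceed the number of E-boxes and do not compare the classes. CAGCTG was in 12.7% of Phase 1-only and 33.9% of Phase 2-only sites. RBPJ strings peak at the center in all 3 classes, and E-box matches peak there at shared and Phase 2-only sites.

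Strings were also counted by whether a site overlapped a Notch1-IC peak of LP cells, without a test. At Phase 1-only sites GTGGGAA was in 1 of 16 sites that overlapped an LP Notch1-IC peak and in 21 of 47 that did not (6.25 and 44.7%). E-boxes were in 50% and 21.3% of the same sites and the RUNX string in 18.75% and 17.02%. At shared sites, by their Phase 2 peaks, GTGGGAA was in 30.3% and 46.9%, E-boxes in 57.6% and 55.1% and the RUNX string in 45.5% and 26.5%. At Phase 2-only sites the GTGGGAA shares were 16.3% (8 of 49) and 24.3% (49 of 202), with overlapping intervals, while the E-box share was 73.5% and 72.3%. The RUNX string (TGTGGTT or TGCGGTT) was in 40.8% and 26.2% of these Phase 2-only sites. Over the classes the RUNX string was in 17.5%, 34.1% and 29.1% of sites, against 25.4% of all Phase 1 RUNX1 peaks, and no contrast passed the test for it, the smallest adjusted p being 0.0837. The ETS string (AGGAAGT or CGGAAGT) was in 12.7 to 14.6% of the sites of a class, against 23.2% of all Phase 1 RUNX1 peaks. It was in 12.7% of windows beside Phase 1-only sites, as in the sites themselves, and in 3.78 to 4.88% beside the other classes. The TCF string (CTTTGAA or CTTTGAT) was in 3.17 to 9.56%, against 5.99% of these RUNX1 peaks and 7.37 to 9.76% of flanking windows. The AP-1 string (TGACTCA or TGAGTCA) was in 2.44 to 6.35%, against 8.73% of these RUNX1 peaks and 3.66 to 4.18% of flanking windows. All strings were counted on both strands, and a match describes the letters only.

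Med12 at the sites was followed into Phase 1 cells with guides against Cbfb, the partner that RUNX proteins need to bind DNA well. Of the Phase 1-only sites that overlapped a Med12 peak of sgCont cells, 86.3% (44 of 51, 74.3 to 93.2%) also overlapped one of sgCbfb cells. The share was 50.7% (35 of 69, 39.2 to 62.2%) at shared and 32.3% (51 of 158, 25.5 to 39.9%) at Phase 2-only sites. Over all 19053 Med12 peaks of sgCont cells it was 67.8%, and 49.8% outside promoters. Outside promoters the class values were 76.9% (57.9 to 89.0%), 46.03% (34.3 to 58.2%) and 32.0% (25.2 to 39.8%). The interval of Phase 2-only sites lay under the value of all such Med12 peaks and that of Phase 1-only sites over it. By the authors' account few cells with these guides could be obtained and noise was higher, and a peak missing from a list can be a weaker peak.

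**Figure D5:**
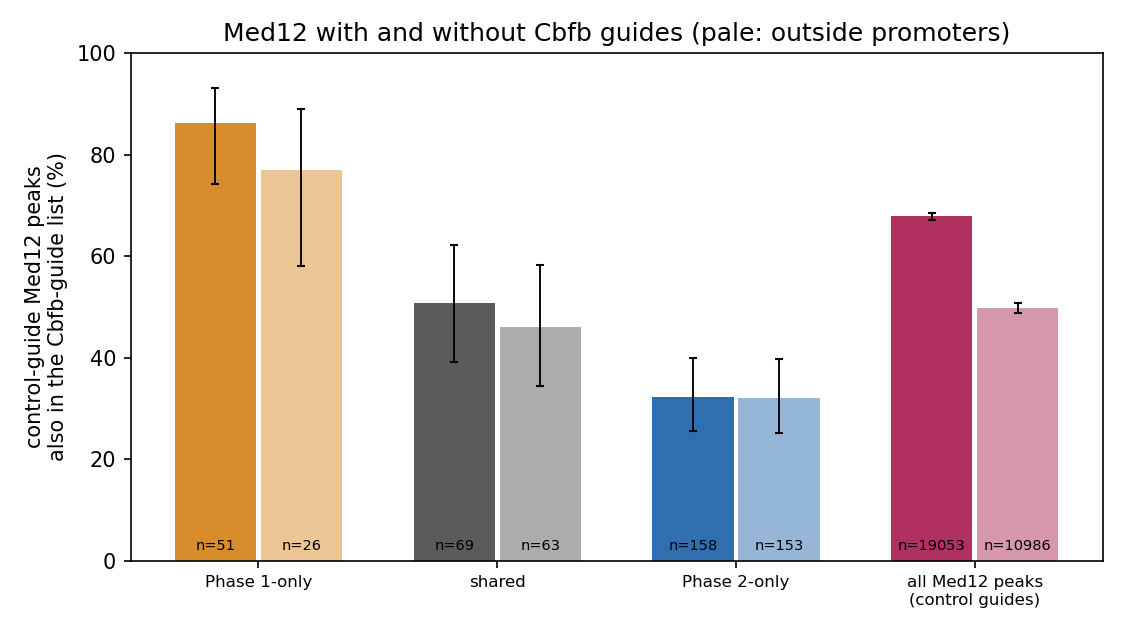
Share of Med12 peaks of control-guide Phase 1 cells that were also in the Cbfb-guide list (y axis, percent), for peaks at the 3 classes of Notch1-IC sites and for all such peaks, with 95% Wilson intervals and the number of sites in each bar. Pale bars leave out promoters. The share falls from 86.3% at Phase 1-only to 32.3% at Phase 2-only sites, with all Med12 peaks between them at 67.8%.

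RUNX1 was compared in the same way in cells with guides against Med12. Of the sites with a RUNX1 peak in sgCont cells, 8 of 9 Phase 1-only, 29 of 37 shared and 71 of 99 Phase 2-only sites also had one in sgMed12 cells (88.9, 78.4 and 71.7%), against 71.0% of all 1550 RUNX1 peaks of sgCont cells. The 95% intervals of the 3 classes overlapped. Peaks in the sgMed12 list and not in the sgCont list were at 5 Phase 1-only, 8 shared and 1 Phase 2-only sites, so the sgMed12 list covered 13 Phase 1-only sites and the sgCont list 9. This short sgCont list overlapped 45.1% of shared and 39.4% of Phase 2-only sites but only 14.3% of Phase 1-only sites (9 of 63), although the longer Phase 1 RUNX1 list covered 88.9% of the latter. It overlapped 4.02% of all Phase 1 RUNX1 peaks.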

How the data were processed

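The 38 samples form 19 groups of 2 replicates, ChIP or input, from Cas9-LP cells, and each peak list combined the replicates of its group. The authors aligned reads to mm10 with Bowtie 1.1.1, called peaks with HOMER against matched controls, and kept reproducible peaks by the irreproducible discovery rate. Notch1-IC was precipitated with a mixture of 2 antibodies. The deposited peak score is the authors' normalized score, at least 15, and other deposited columns held annotations and distances to starts. Read depth per sample was not given in the sources used here. Of 17 lists, 15 were used and 2 RUNX1 lists of LP cells with guides were not used.

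Peaks on sex chromosomes or unplaced sequence and satellite or rRNA peaks were left out (7 in Phase 1, and 19 in Phase 2, with scores up to 16727.4). Phase 1 peaks were 241 bp and Phase 2 peaks 123 to 173 bp wide. Overlap was 1 bp. Strings were searched on both strands in 200 bp of GRCm38. Shares have 95% Wilson intervals. Over 9 features and 3 contrasts, 27 two-sided Fisher's exact tests were adjusted by Benjamini-Hochberg with a threshold of 0.05. The set of shared sites was read from the Phase 2 list against Phase 2-only sites and from the Phase 1 list against Phase 1-only sites. The scripts were tested on simulated data. Python 3.11.15, scipy 1.17.1, pandas 2.3.3 and pysam 0.24.0 were used, and GENCODE M21 gave gene positions.

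Named were the 5 highest-scored sites of each class, sites nearest to genes of 6 lists, and nearest genes with at least 3 sites. Members and lists were chosen with earlier results of these data known.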

Additional observations from a re-analysis of the deposited data

How the results depend on the processing

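The promoter calls of Phase 1-only sites held under every alternative that could test them except a minimum score of 30. There the adjusted p-values were 0.168 and 0.126 by Fisher's exact test. That rule formed the classes anew from peaks scoring at least 30, which gave 5 Phase 1-only, 14 shared and 65 Phase 2-only sites. A shared site under 30 in 1 list was then counted for the other stage only. By the original classes, 1 Phase 1-only and 44 Phase 2-only sites scored at least 30. Under that rule 0 features differed in each contrast. Contrasts are given in the order Phase 2-only against shared, Phase 1-only against shared, Phase 1-only against Phase 2-only. With the Phase 2 list shortened to the 145 highest peaks, 51 sites were shared and 94 Phase 2-only, and 2 features differed in the second contrast and 7, CTCF among them, in the last. Without promoters 34 Phase 1-only sites remained, and 2, 0 and 0 features differed. With all peaks, 3 and 2 features differed in the first contrasts, and 2 and 2 with factor peak centers within 100 bp. In the first contrast 2 differed with the RBPJ core, 2 with RBPJ in 100 bp and 0 without multi-copy sites, an alternative chosen after seeing the data. The LP RUNX1 call between Phase 1-only and Phase 2-only sites held in 6 of 8 alternatives. Between Phase 2-only and shared sites, LP RUNX1 and LP Notch1-IC held in 6 of 9, Phase 1 RUNX1 and Med12 in 4 of 9 and RBPJ in 3 of 10. Among values of single features 20 changed sign, none of them a called difference. In percentage points, a minimum score of 30 gave 3.63 for promoters in the first contrast and 14.3 each for Phase 1 RUNX1, Med12 and p300 in the second. Leaving out promoters gave 5.18 for RBPJ, all peaks 1.48 for RUNX1, score matching 0.352 for RUNX1 and the 100-bp window 7.36 for RBPJ, all in the second contrast, and 2.85 for the RUNX string in the first. The center rule gave 4.29 for p300 and 3.49 for CTCF in the first, 11.1 for RUNX1, 7.41 for Med12 and 14.2 for p300 in the second, and -0.860 for LP Notch1-IC in the last. Without multi-copy sites the values were 0.0914 for the RUNX string in the first, 7.24 for RUNX1, 0.842 for Med12 and 4.21 for p300 in the second, and -2.73 for LP Notch1-IC in the last. The causes were not tested. No paired analysis was possible because each list combined its replicates, and for the same reason no replicate could be left out. Depth is unknown, so a site missing from a list is not shown to be unbound.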
